A study of Mus musculus with 8 samples.

Results

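The 7 genes described here carry vitamin B12 (cobalamin) from the gut lumen into the body and into its enzymes: Cubn, Amn, Lrp2, Tcn2, Cd320, Mmachc and Mmab. They were taken by symbol from a table of 41128 genes and all 7 were present. They were measured as polyadenylated RNA in whole sections of the distal ileum, taken less than 6 cm from the ileocecal valve, from 8 FVB mice with 1 library per mouse. The mice formed 4 sex-matched littermate couples, each a Cftr null mouse (Cftrtm1Cam, Cftr -/-, here KO) and a Cftr N/N control (here WT). Untreated mice numbered 3 KO and 3 WT (females in couples 1 and 3, males in couple 2 by label). A last pair of females (1 KO, 1 WT) drank water with ciprofloxacin at 0.3 g/L and metronidazole at 0.5 g/L. Every mouse, WT included, was raised on a low fiber diet with an osmotic laxative, which was stopped more than 4 days before sampling. The null allele is a germline allele and not restricted to a tissue. P-values of the untreated comparison measure the spread between mice. Where the couple is fitted as a block, they measure the spread of KO to WT differences between couples. For the difference between genotype effects with and without antibiotics, the spread comes from the untreated mice alone.

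Dietary cobalamin is bound by intrinsic factor, a protein from the stomach, and the complex is taken up by enterocytes of the distal ileum. The receptor there, called cubam, consists of cubilin (Cubn), which binds the complex outside the membrane, and amnionless (Amn), which anchors cubilin in the membrane and drives its endocytosis. In humans, loss of either gene causes inherited cobalamin malabsorption. Cobalamin is then released from the lysosome, leaves the enterocyte to be carried in blood by transcobalamin (Tcn2), enters other cells through the transcobalamin receptor CD320, and is processed by MMACHC in the cytosol and by the adenosyltransferase MMAB in mitochondria. Megalin (Lrp2) is the partner of cubilin in the kidney tubule.

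Values are the authors' and were taken as RPKM-like, since their unit is not named, and the number of reads behind them is unknown. They had been normalized in 3 separate sets (couples 1 and 2, couple 3, the antibiotic couple), so a KO library is best compared with its own littermate. Fold changes are on the scale of log2(value + 1), which understates changes of low genes. Of 11911 genes tested, those that reached 1 in 3 or more of the 8 libraries, 243 passed (2.04%), and 115 were lower (0.965%) and 128 higher (1.07%) in untreated KO than in WT at an adjusted p under 0.05 (limma, Benjamini-Hochberg adjustment). With the littermate couple as a block 17.6% passed, of which 9.52% were lower and 8.07% higher (as shares of all tested). The mutated gene itself, Cftr, had 3.74, 2.65 and 3.17 in untreated KO and 12.4, 9.94 and 10.1 in WT ileum of couples 1, 2 and 3, and 4.94 in KO and 13.8 in WT of the antibiotic couple. The KO libraries were thus below the WT libraries throughout, and the value is for the whole gene, not for the altered exons alone.

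Of the 7 genes, 6 passed the filter and 1, Lrp2, did not. Cubn fell in untreated KO ileum, and it was the 1 gene of the 6 that passed the test without the couple block, beside 0.965% of all genes lower. With the block 3 of the 6 fell, namely Cubn, Amn and Tcn2, beside 9.52% of all genes, and 0 rose. These 3 were lower in KO in all 4 couples, as were 21.1% of the 11520 genes compared there. Cd320, Mmachc and Mmab did not pass either test.

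Since Cubn and Amn encode the pair of proteins of 1 receptor, their promoters are shown, from 250 bases before to 50 after the RefSeq start, 5′ to 3′ on the strand of the gene (GRCm38.p6). The Cubn sequence is chr2:13491827-13492126 on the minus strand and the Amn sequence chr12:111270846-111271145 on the plus strand. Capitals mark matches to 9 short motifs, searched on both strands.
Cubn: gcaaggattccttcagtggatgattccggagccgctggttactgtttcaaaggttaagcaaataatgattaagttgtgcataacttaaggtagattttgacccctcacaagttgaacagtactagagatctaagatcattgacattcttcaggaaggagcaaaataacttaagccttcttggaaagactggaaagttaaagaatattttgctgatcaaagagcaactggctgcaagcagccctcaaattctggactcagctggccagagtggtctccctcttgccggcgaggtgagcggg
Amn: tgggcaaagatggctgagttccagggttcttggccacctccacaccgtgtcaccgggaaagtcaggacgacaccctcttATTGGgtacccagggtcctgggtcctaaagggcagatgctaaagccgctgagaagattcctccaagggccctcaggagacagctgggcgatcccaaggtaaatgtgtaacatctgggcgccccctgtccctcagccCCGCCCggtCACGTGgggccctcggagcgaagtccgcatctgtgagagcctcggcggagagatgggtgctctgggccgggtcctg
The Cubn promoter held no match to any of the 9, and 44.3% of its bases were G or C. The Amn promoter had 62.3% G and C, against a median of 52.7% over all 32851 promoters in the table. It held the E-box CACGTG from base -26 to -21 before the start, a motif found in 7.15% of those promoters, a GC box (GGGCGG, 35.7% of promoters) from -35 to -30 and a CCAAT box (CCAAT, 37.4%) from -171 to -167, both on the opposite strand. The other motifs searched were AGATAA (11.2%), GTTAAT (7.1%), AGGTCA (16.3%), TATAAA (13.6%), TTTATG (11.9%) and the ZNF143 submotif (0.947%). Within these windows the pair therefore shared none of the listed letters, which says nothing about the factors that act on them.

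Cubn lies on chromosome 2 at 13276338 to 13491813 (minus strand, GRCm38), and its longest annotated transcript has 67 exons and 11262 bases. It had 10.5, 8.01 and 11.2 in untreated KO ileum of couples 1, 2 and 3, against 115, 198 and 77.4 in WT littermates. The groups did not overlap, as was the case for 12.1% of all genes tested in this direction, and the lowest WT value lay far above the highest KO value. The mean was 9.91 ± 1.69 in KO and 130.2 ± 61.7 in WT (SD, n = 3 each). The fitted difference was -3.49 on the log2 scale (SE 0.33, 95% interval -4.28 to -2.71), and limma gave it an adjusted p of 0.00504, or 0.0131 with the couple block. This fitted change was the third most negative of the 11911 genes tested. Within couples, KO had 9.09% of the WT value in couple 1, 4.05% in couple 2 and 14.5% in couple 3, and WT values ranged more widely over the couples than KO values. Leaving out any 1 of the 6 libraries kept the call (adjusted p = 0.00725 to 0.0215), whereas leaving out a whole couple without the block ended it (log2 changes of -3.90 to -3.01, adjusted p = 0.0574 to 0.13). It was also lost without the filter on low values (adjusted p = 0.0817) and, with the block, without couple 1 (adjusted p = 0.0607).

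**Figure D1:**
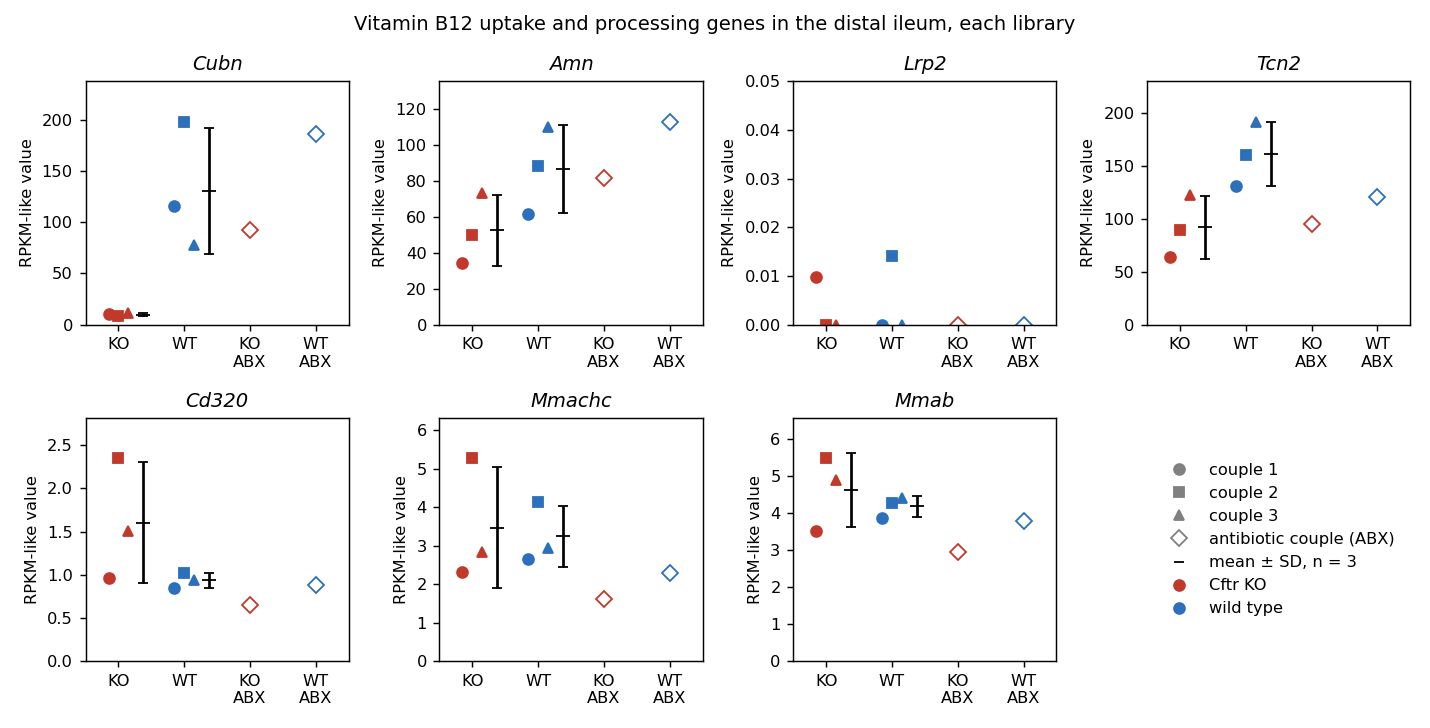
RPKM-like values (y axis, linear from 0, a separate scale per gene) of the 7 genes in each library, by group on the x axis, with KO in red, WT in blue, the symbol giving the couple and black bars the mean ± SD of the 3 untreated libraries (not drawn for Lrp2, which is at or near 0). Cubn values of untreated KO lie between 8.01 and 11.2 and the KO value with antibiotics (ABX) at 92.2, while the WT values lie between 77.4 and 198.

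Amn, on chromosome 12 at 111271095 to 111276426 (plus strand), is a short gene whose longest transcript has 12 exons and 1701 bases. It had 34.3, 49.7 and 73.2 in untreated KO ileum of couples 1, 2 and 3, against 61.3, 88.1 and 109.9 in WT littermates. Each KO value was below that of its own littermate, but the groups overlapped, since KO of couple 3 was above WT of couple 1. The mean was 52.4 ± 19.6 in KO and 86.4 ± 24.3 in WT (SD, n = 3 each). Its log2 change of -0.74 did not pass in limma without the block (SE 0.33, adjusted p = 0.334) and passed with it (SE 0.09, adjusted p = 0.0169). Libraries of couple 1 had the lowest and those of couple 3 the highest Amn value in both genotypes. With the block and without 1 couple, the adjusted p was 0.0659 without couple 1, 0.06 without couple 2 and 0.0368 without couple 3. In the 3 untreated couples KO had 55.8%, 56.4% and 66.6% of the WT value.

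The pair of receptor genes was also compared within each library. The level of Cubn divided by that of Amn in the same library, a ratio of values per length, was 0.306, 0.161 and 0.153 in untreated KO and 1.88, 2.25 and 0.704 in WT ileum of couples 1, 2 and 3. Cubn was above Amn in WT of couples 1 and 2 and below it in WT of couple 3 and in each untreated KO library. In the antibiotic couple the ratio was 1.13 in KO and 1.65 in WT. These ratios rest on the values that gave the changes above and are a description.

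**Figure D2:**
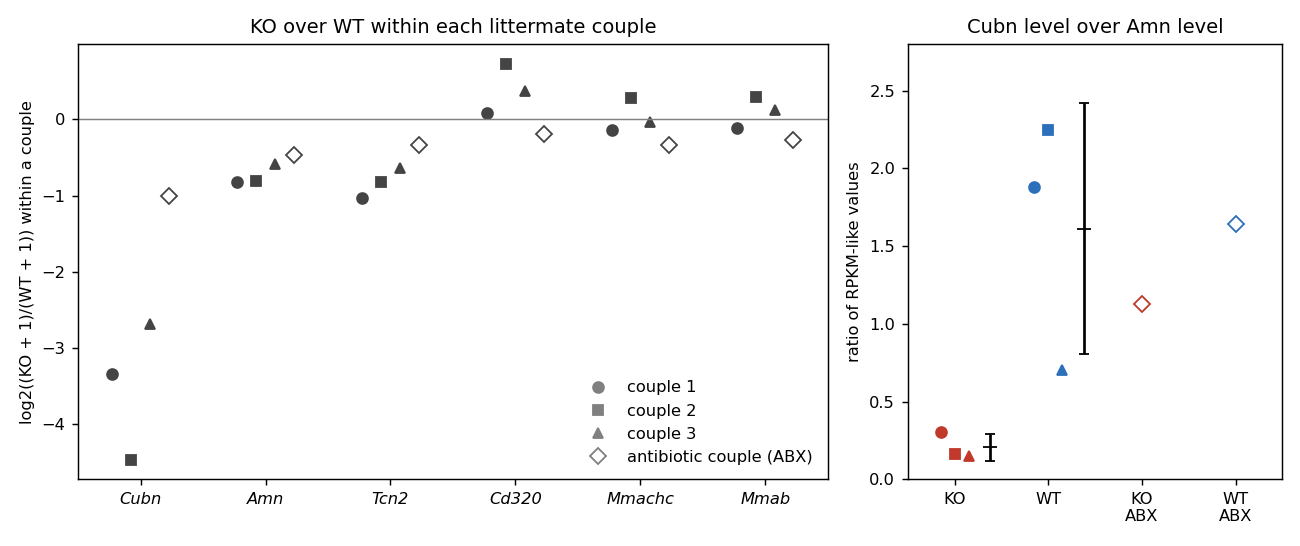
Left: log2((KO + 1)/(WT + 1)) within each littermate couple for the 6 tested genes, with filled symbols for untreated couples and open diamonds for the antibiotic couple. Right: the level of Cubn over that of Amn in each library, KO in red and WT in blue, with bars for the mean ± SD of 3 untreated libraries. Cubn, Amn and Tcn2 are below 0 in all 4 couples, and the ratio of Cubn to Amn is at most 0.306 in untreated KO.

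Lrp2, the endocytic receptor megalin (chromosome 2, 69424340 to 69586065, minus strand), was listed at 0.00975 in KO of couple 1 and at 0 in KO of couples 2 and 3. It was listed at 0.014 in WT of couple 2, at 0 in WT of couples 1 and 3, and at 0 in both antibiotic libraries. No comparison was made for it, and the zeros do not show absence, since between 11912 and 20896 genes were above 0 per library. Among 10 genes that act with these receptors in endocytosis, each was tested, 0 passed without the block and Rab11a, a recycling endosome GTPase, rose with it. Rab11a had 34.1, 23.8 and 40.4 in KO and 28.5, 18.4 and 29.7 in WT of couples 1, 2 and 3 (log2 change 0.35, adjusted p = 0.583 without the block and 0.0452 with it). That call was lost in the blocked fit without any 1 couple (adjusted p = 0.0867, 0.144 and 0.195 without couples 1, 2 and 3), and the log2 change was 0.14 without WT of couple 2, 0.18 without KO of couple 3 and 0.55 without KO of couple 2. Dab2, an endocytic adaptor, averaged 1.29 ± 0.692 in KO and 1.75 ± 0.347 in WT, and Lrpap1, the chaperone of megalin, 5.18 ± 0.305 in KO and 6.01 ± 0.0759 in WT (SD, n = 3 each). Their adjusted p-values were 0.61 and 0.551 without the block, and 0.179 and 0.164 with it. The median log2 change of the 10 was -0.04, beside -0.02 over all genes tested.

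Tcn2, which encodes the plasma carrier that delivers cobalamin to cells, lies on chromosome 11 at 3917192 to 3932159 (minus strand). It had 63.4, 89.5 and 122 in untreated KO ileum of couples 1, 2 and 3, against 131, 159.7 and 191 in WT littermates. The groups did not overlap, which was the case for 12.1% of all genes tested in this direction. The mean was 91.8 ± 29.5 in KO and 161 ± 30.3 in WT (SD, n = 3 each). Its log2 change was -0.83, with SE 0.29 and adjusted p = 0.209 when couples were ignored, and SE 0.10 and adjusted p = 0.0176 when limma took the couple as a block. With the block and without 1 couple, the adjusted p was 0.0648 without couple 1, 0.0618 without couple 2 and 0.0346 without couple 3. KO had 48.5%, 56.1% and 63.9% of the WT value in the 3 couples, close to the percentages of Amn.

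Cd320, the receptor that takes transcobalamin-bound cobalamin into cells, lies on chromosome 17 at 33843091 to 33849774 (plus strand) and had low values throughout. It had 0.961, 2.35 and 1.5 in untreated KO ileum of couples 1, 2 and 3, against 0.848, 1.02 and 0.941 in WT littermates. The groups overlapped, and KO was above its littermate in each of the 3 couples, a direction shared by 27.8% of all genes tested. The log2 change was 0.39 (SE 0.22) with a 95% interval of -0.12 to 0.91, and adjusted p-values of 0.446 without and 0.138 with the block. It was 0.20 without KO of couple 2, 0.23 without couple 2, and 0.64 with a pseudocount of 0.1. The gene passed the filter on low values with 3 libraries at or above 1, of which 2 were KO.

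Mmachc, which trims and reduces incoming cobalamin in the cytosol, lies on chromosome 4 at 116702279 to 116708406 (minus strand). It had 2.31, 5.26 and 2.84 in untreated KO ileum of couples 1, 2 and 3, against 2.65, 4.14 and 2.94 in WT littermates. Couple 2 was the highest in both genotypes, and KO was above its littermate in that couple only. The log2 change was 0.04 (95% interval -0.58 to 0.65, adjusted p = 0.968 without and 0.841 with the block), and its sign turned in 5 of the fits that left out libraries. Human MMACHC is controlled by the factors HCFC1, THAP11 and ZNF143, and the mouse genes Hcfc1, Thap11 and Zfp143 had log2 changes of -0.14, -0.13 and 0.12, of which 0 passed with or without the block. The Mmachc promoter held 1 match to the ZNF143 submotif at chr4:116708398-116708409 on the strand opposite to the gene. On the strand of the gene it reads GGGAAATGTAGT, from base -24 to -13 before the RefSeq start. The GENCODE start given above, 116708406, differs from that start and lies within the match.

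Mmab, the mitochondrial enzyme that makes adenosylcobalamin, lies on chromosome 5 at 114431034 to 114444060 (minus strand). It had 3.53, 5.48 and 4.9 in untreated KO ileum of couples 1, 2 and 3, against 3.88, 4.29 and 4.42 in WT littermates. The groups overlapped, and the log2 change was 0.10 (95% interval -0.30 to 0.51, adjusted p = 0.834 without and 0.512 with the block). Like Mmachc, it had a WT mean of only a few units, at 4.2 ± 0.283, beside 4.64 ± 1 in KO (SD, n = 3 each).

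On this scale per length, the mean levels in untreated KO ordered as Tcn2, Amn, Cubn, Mmab, Mmachc and Cd320. The ranges of Tcn2 and Amn overlapped in KO, as did those of Mmab and Mmachc and of Mmachc and Cd320, while Cubn overlapped with neither neighbour. In untreated WT the order was Tcn2, Cubn, Amn, Mmab, Mmachc and Cd320, and there the ranges of Tcn2 and Cubn, of Cubn and Amn, and of Mmab and Mmachc overlapped. Cubn thus stood among the highly expressed genes in WT, at rank 335 of 41128 by mean level, and at rank 4627 in KO.

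The other genes of the cobalamin route were measured as a list of 13, of which 12 passed the filter. None of the 12 passed limma's test in either direction, with or without the block, and their median log2 change was 0.09 (range -0.33 to 0.43). The missing gene was Gif, intrinsic factor itself, listed at 0.039 in WT of couple 1 and at 0 in the other 7 libraries. Lmbrd1 and Abcd4, which pass cobalamin out of the lysosome, had 11.4 ± 1.82 and 10.2 ± 1.3 in KO and 14.5 ± 1.28 and 12.6 ± 2.08 in WT (SD, n = 3 each). Both were lower in KO in each of the 3 couples, as were 32.4% of all genes tested, with adjusted p-values of 0.398 and 0.509 without the block and 0.0565 and 0.0902 with it. Abcc1, an exporter of cobalamin from the cell, had a log2 change of 0.30 (adjusted p = 0.492, and 0.125 with the block). Clybl, a mitochondrial enzyme linked to cobalamin in humans, averaged 9.04 in KO and 6.41 in WT, with groups that did not overlap, as was the case for 10.3% of all genes in this direction (adjusted p = 0.244, and 0.0565 with the block). Mmadhc, the partner of MMACHC that directs cobalamin to cytosol or mitochondria, had a log2 change of 0.22 (adjusted p = 0.729, and 0.0858 with the block).

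The enzymes that use cobalamin did not pass the test either. Mtr, methionine synthase, averaged 1.69 ± 0.570 in KO and 1.43 ± 0.0911 in WT, and its reductase Mtrr 2.52 ± 0.358 in KO and 2.26 ± 0.417 in WT (SD, n = 3 each). Mut, methylmalonyl-CoA mutase, averaged 11.7 ± 1.72 in KO and 14.3 ± 2.18 in WT, and its chaperone Mmaa 5.56 ± 1.22 in KO and 6.71 ± 0.694 in WT. Their adjusted p-values in limma lay between 0.524 and 0.817 without the block, and between 0.0621 (Mut) and 0.529 (Mtr) with it. Mut was lower in KO in all 4 couples, as were 21.1% of the genes compared there. Of 14 folate and methionine cycle genes, which share the methionine synthase step, 12 were tested, 0 passed without the block, and Shmt2, a mitochondrial serine hydroxymethyltransferase, rose with it. Shmt2 had 22, 28.8 and 18.8 in KO and 12.2, 19.7 and 15.3 in WT of couples 1, 2 and 3 (log2 change 0.54, adjusted p = 0.319 without the block and 0.0465 with it). That call was lost in the blocked fit without any 1 couple (adjusted p = 0.107, 0.136 and 0.0677 without couples 1, 2 and 3).

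**Figure D3:**
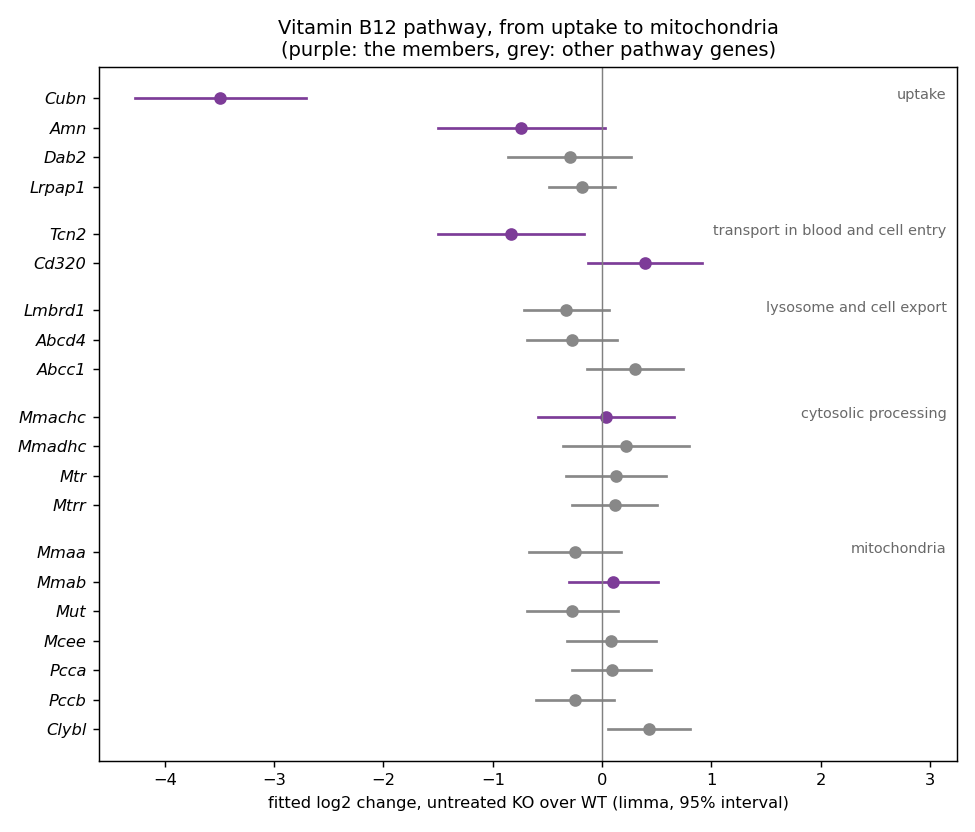
Fitted log2 change of untreated KO over WT on the x axis (limma without the block, points) with 95% intervals (lines) for genes of the cobalamin route on the y axis, ordered from uptake at the top to mitochondria at the bottom, the described genes in purple and other genes in grey. Cubn lies at -3.49 and the interval of Amn reaches 0.03. The intervals of Tcn2 (below 0) and Clybl (above 0) also exclude 0, while those of the other genes include it. The intervals are per gene and not adjusted for the number of genes. Tcn2 and Clybl did not pass in this limma fit (adjusted p = 0.209 and 0.244).

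In bulk tissue, fewer cells of a type and less RNA per cell cannot be told apart. The 10 general epithelial markers had a median log2 change of 0.06, with 0 called with or without the block, and their summed level was 5354 to 6655 in untreated KO and 4263 to 6761 in WT. Among brush border genes, which mark mature enterocytes, 15 of 16 were below 0 and the median was -0.52. One by one, 1 passed without the block (Mep1a) and 9 fell with it, and their summed level was 4673 to 7285 in KO and 6248 to 8751 in WT. No marker of either list was at 0 in any library.

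Set against Epcam and Vil1 of these lists within each library, Cubn was far lower in KO. Cubn over Epcam, a marker of all epithelial cells, was 0.0153, 0.0159 and 0.0142 in untreated KO and 0.162, 0.3 and 0.0874 in WT of couples 1, 2 and 3. Vil1, the brush border protein villin, itself fell with the block (log2 change -0.51, adjusted p = 0.0339, and 0.419 without the block). Cubn over Vil1 was 0.0225, 0.0168 and 0.0182 in KO and 0.186, 0.279 and 0.0849 in WT, so the groups did not overlap with either divisor. The other markers were not used as divisors. Among them Mep1a had 19.5% of its WT mean in untreated KO, beside 69.6% for Vil1 and 7.61% for Cubn. Amn over Vil1 was 0.0734, 0.104 and 0.118 in KO and 0.0989, 0.124 and 0.121 in WT, with overlapping groups. Tcn2 over Vil1 was 0.136, 0.188 and 0.198 in KO and 0.211, 0.225 and 0.21 in WT, with groups that did not overlap but lay close together. Amn over Epcam was 0.0499, 0.0986 and 0.0925 in KO and 0.0863, 0.133 and 0.124 in WT, again with overlap. Tcn2 over Epcam was 0.0923, 0.178 and 0.155 in KO and 0.184, 0.242 and 0.216 in WT, without overlap. The part of the brush border genes as a group in the lower Amn and Tcn2 values was not tested further.

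Markers of other cells were read in the same way. Of 6 endothelial markers, cells that make transcobalamin in humans, 5 were tested with a median log2 change of -0.43. None was called without the block and 2 fell with it, Cdh5 and Kdr. Their summed level was 8.35 to 16.3 in KO and 14.3 to 20.9 in WT, Vwf was listed at 0 in both libraries of couple 3, and the part of these cells in the Tcn2 values was not tested. The 9 immune markers had a median of 0.53, with Cd3g higher without the block and Cd3e and Cd3g higher with it, and summed levels of 47.3 to 92.1 in KO and 24.4 to 52.4 in WT. The 6 stromal markers had a median of -0.50 and the 6 smooth muscle markers one of 0.03, with 0 called in either list with or without the block. Of 5 gastric markers 0 passed the filter.

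**Figure D4:**
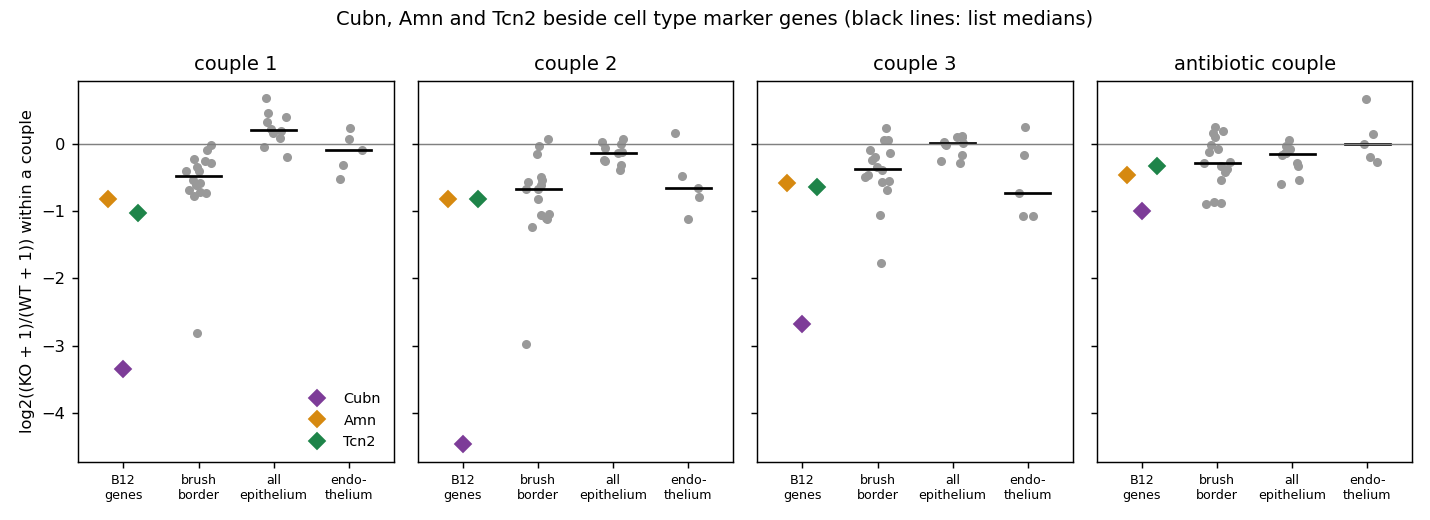
Log2((KO + 1)/(WT + 1)) on the y axis within each couple (1 panel per couple) for Cubn, Amn and Tcn2 (coloured diamonds) and for each tested gene of the brush border, general epithelial and endothelial lists (grey points, black line at the median). The brush border medians are -0.48, -0.67 and -0.37 in couples 1, 2 and 3 and -0.28 in the antibiotic couple, and Cubn lies below each median.

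The ileal bile acid genes, which mark the same stretch of gut as cubam, did not all go one way. Of 7, 2 fell without the block (Fgf15 and Nr0b2) and 4 with it (Fabp6 and Slc51a as well), while the bile acid transporter Slc10a2 had 92, 63.7 and 153 in KO and 38.2, 56.3 and 46 in WT of couples 1, 2 and 3 (adjusted p = 0.18, and 0.0774 with the block). Among 11 enterocyte transcription factors, 9 were below 0 and the median log2 change was -0.37. Without the block 1 fell, Ppara, and with it 4 fell, among them Ppara, Hnf4g and Gata5. Hnf4a, a main regulator of enterocyte genes, averaged 191 ± 27.7 in KO and 206 ± 46.8 in WT (SD, n = 3 each; adjusted p = 0.913).

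The genes whose KO over WT pattern was nearest to that of Cubn, by Euclidean distance over the log2 ratios of the 4 couples, were Tm4sf4, Mep1a, Cyp2d26, Cyp4a10 and Slc28a1, at distances of 1.75 to 2.09. Mep1a encodes a brush border metalloprotease subunit, Cyp2d26 and Cyp4a10 cytochromes of drug and fatty acid metabolism, and Slc28a1 a nucleoside transporter. Distance was not scaled by the size of the change, and few genes fell as much as Cubn. Its larger distances therefore do not set its pattern apart from those of Amn and Tcn2. The neighbours of Amn (0.0529 to 0.174) were Fam102a, Siae, Igsf3, Acss1 and Adcy8. Those of Tcn2 (0.0813 to 0.202) were Kbtbd11, Tmem144, Acss1, AY761185 and Dpyd, of which Acss1, a mitochondrial acetyl-CoA synthetase, was shared with Amn. Without the block, the 5 genes nearest to Amn did not pass in limma (adjusted p = 0.124 to 0.213), and they passed with it (adjusted p = 0.0142 to 0.0216). Of those nearest to Tcn2, Kbtbd11, Acss1 and AY761185 passed with the block alone, and Tmem144 and Dpyd in both fits. These distances describe the same libraries and carry no test.

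In the couple given antibiotics Cubn had 92.2 in KO and 185 in WT, so KO had 49.7% of the WT value. The KO value lay above each untreated KO value and inside the untreated WT range of 77.4 to 198, and the WT value lay inside that range too. In the untreated couples KO had at most 14.5% of the WT value. The difference between the genotype effect with antibiotics and without was 2.49 log2 units (SE 0.67, 95% interval 0.93 to 4.06, unadjusted p = 0.00653, adjusted p = 0.773, limma over 11520 genes). With the couple as a block the adjusted p was 0.233, the lowest of the alternatives, which reached up to 1. Of the 11520 genes 0 passed in this test (0%), with or without the block, and at an unadjusted p under 0.05 there were 483 (4.19%) without it and 1850 (16.1%) with it. The antibiotic couple has no replicate, so the treatment cannot be told apart from that couple, its litter or its normalization set.

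Amn had 81.6 in KO and 113 in WT of the antibiotic couple, and Tcn2 had 95.3 in KO and 120.5 in WT, so KO had 72.4% and 79.1% of the WT value. Both percentages were above those of the 3 untreated couples. Cd320 had 0.648 in KO and 0.877 in WT, Mmachc 1.62 in KO and 2.3 in WT, and Mmab 2.96 in KO and 3.79 in WT. All 6 tested genes were lower in KO than in WT in that couple, including Cd320, which was higher in KO in the 3 untreated couples. Their median log2 ratio there was -0.34, beside -0.04 over all genes compared. The share of all genes lower in KO in that couple was not computed, so the count of 6 is only a description. Other lists were low in that couple too, but not all. The medians were -0.22 for the other cobalamin genes, -0.23 for the endocytic partners, -0.15 for epithelial and -0.28 for brush border markers. The ileal bile acid genes had a median of -0.95, with Fabp6 at 458 in KO and 4955 in WT and Slc10a2 at 7.53 and 67.1. Fgf15 of that list went the other way, at 37.2 in KO and 18.6 in WT. The immune markers were higher in KO, with a median of 1.79 and summed levels of 71.5 in KO and 12.8 in WT. For the 5 tested vitamin B12 genes other than Cubn, the adjusted p of the difference between genotype effects was 0.999 without the block and 0.33 to 0.473 with it.

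Over both genotypes, the level of Cubn with antibiotics was 1.86 log2 units above that without (SE 0.53, 95% interval 0.65 to 3.07, adjusted p = 0.141, limma over all 8 libraries), while the median of all 11520 genes was -0.14. Amn had a fitted difference of 0.56 (adjusted p = 0.355) and Tcn2 of -0.15 (adjusted p = 0.807), the sign of which turned when the libraries were centred on their medians. Cd320, Mmachc and Mmab had -0.33, -0.53 and -0.30 (adjusted p = 0.295 to 0.453). None of these genes passed in limma, beside 0.156% of all genes. At an unadjusted p under 0.05 there were 2240 genes (19.4%), Cubn among them with a limma p of 0.00714. The fitted differences of Cubn and Amn were above 0 and those of Tcn2, Cd320, Mmachc and Mmab below it, and all rest on 1 treated couple.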

How the data were processed

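Total RNA from whole ileal sections was enriched for polyadenylated RNA, fragmented and sequenced on an Illumina HiSeq or an Ion Proton, per the labels' protocols, which mention no strand marking. Per the series' design text, the authors used CLC Genomics Workbench 7.5 with its defaults to map reads to GRCm38, release 76. How reads were counted and normalized, and which instrument read which library, is not given in the sources used here. No unit is named in the deposited table. Its values were taken as RPKM, since the library sums were 346794 to 397082 and log2 values fell with log2 exon length (slopes -0.55 to -0.36), and as scaled by the authors in 3 sets, because couples 1 and 2 hold the same set of sorted values in all 4 libraries, while couple 3 and the antibiotic couple shared 96.5% and 90.8% of their values within the couple and 0% with the others. Read depth is unknown, so no counting interval was computed.

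Samples were grouped by title. Genes that reached 1 in 3 or more of the 8 libraries were fitted as log2(value + 1) with limma 3.58.1 in R 4.3.3 (trended prior variance, Benjamini-Hochberg threshold 0.05), after the scripts were tested on simulated data. Untreated KO and WT were compared without a block. Treatment was fitted with genotype over all libraries, and the genotype by treatment term from a mean for each of the 4 groups. The labels call the mice of a couple littermates, and the deviations of KO and WT from their group means correlated within each couple (r = 0.615, 0.632 and 0.526 across genes). Litter and normalization set cannot be told apart in this check. Fits that use the antibiotic couple left out 423 genes with doubtful values in its WT column, a rule chosen with the values known. Of these, 376 share a value with another gene, 45 are at 0 with KO at least 1, and 2 lie over 3 log2 units low. None of the 7 genes was among them.

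The 7 genes and all lists were chosen with earlier results of these data known. Named beside them were Cftr, list genes called with or without the block, direct partners, and the 5 genes nearest in couple ratios to each called gene. Marker genes and motifs were named after their values were seen, and the transcription factor list is not reported here in full. Gene positions come from GENCODE M21 (GRCm38) and promoters from RefSeq (GRCm38.p6), with entries for 6 of the 7 genes. An opposite-strand transcript, Gm13270, overlaps 368 of the 14935 exonic bases of Cubn, and its reads cannot be told apart. Alternatives were the block, pseudocounts of 0.1 and 0.5, other filters on low values, median centring, no variance trend and leaving out libraries or couples.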

Additional observations from a re-analysis of the deposited data

How the results depend on the processing

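Over the fits of the untreated comparison, Cubn kept its direction, with log2 changes of -3.90 to -3.01. Of all genes, 2095 were called with the couple as a replicate block, 11 without a filter on low values, 63 to 129 when 1 library was left out, 0 when a couple was left out without the block, and 198, 446 and 555 with the replicate block and without couple 1, 2 or 3, against 243 in the fit reported. Of the 7 vitamin B12 genes, 3 were called with the replicate block, 0 without the filter, 0 without any 1 couple, and 0 to 3 without a couple in the blocked fit, against 1. Without a couple and without the block, Cftr missed the threshold too (log2 changes of -1.54 to -1.45, adjusted p = 0.0747 to 0.164), while with the replicate block it passed each time (adjusted p = 0.00988 to 0.0381). The antibiotic effect gave 18 genes, 0 without the filter and 2 to 6 without an untreated couple, and the dependence of genotype on treatment 0 genes, or 74 with the doubtful genes kept, an alternative added after seeing the data. Neither gave a call among the 7 genes in any of these fits. The sign turned for Mmachc (-0.24 to 0.22 without a library or couple, and -0.0899 without couple 2 with or without the replicate block), for Mmab (-0.00553 to 0.25 without a library or couple), for Mtr (-0.0246 to 0.29), and for the antibiotic effect of Tcn2 (0.0398 with median centring, and -0.33 to 0.0363 without a couple). Couples 1 and 2 and couple 3, normalized apart, are given by their own ratios in the text. Read depth is unknown. The cause of these changes was not tested.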
